A study of Arabidopsis thaliana with 6 samples.

Results

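In roots of *ninja-1* seedlings, 65 transcripts that were already abundant in WT stood 1.5 to 2-fold above their WT level, a size that a 2-fold cutoff passes over. These 65 were selected on the measured values themselves. Each is a probe set of the Affymetrix ATH1 array, that is, a set of short oligonucleotides read as 1 value, in most cases for 1 transcript, whose mean over the 3 WT arrays was at least 8 on the log2 scale. The mean over the 3 *ninja-1* arrays had to lie at least 1.5-fold but less than 2-fold above it, that is, less than 1 on the log2 scale, and every *ninja-1* array had to lie above every WT array. Of the 22746 probe sets that are not controls, 6177 had a WT mean of at least 8 and are called abundant here, and 68 of these met all thresholds. The selection leaves out 4 probe sets by name, 3 of them among the 68 (*NAI2*, *OPCL1* and *GTR2*), which gives the 65.

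The series compared whole roots of *ninja-1* seedlings, 5 days old (5-do), with roots of WT (Col-0) seedlings of the same age, from 3 biological replicates of 120 roots per genotype and 1 array per replicate. Both genotypes carried the JAZ10pro-GUSPlus (JGP) reporter, a β-glucuronidase gene driven by the *JAZ10* promoter, and neither was treated. The seedlings were grown horizontally on half-strength MS medium, and *ninja-1* was the only allele of *NINJA* on the arrays. The *NINJA* transcript was not analysed here, because the gene annotation used gives no probe set for it. In whole roots, fewer cells of a type and less RNA per cell cannot be told apart.

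NINJA is an adaptor protein of the jasmonate (JA) pathway. It links the JAZ repressors to the co-repressor TOPLESS and so helps to hold MYC transcription factors inactive while JA levels are low. Active JA causes the JAZ proteins to be degraded, which frees the MYC factors to switch on genes for defence proteins, secondary metabolites and JA synthesis itself. Roots lacking NINJA are known to be short, with poorly elongated cells.

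The values are background-corrected, normalised log2 signals that the authors made with GCRMA, so a difference of 1 is a doubling. The lowest value on the arrays, the floor, was 2.11, and the highest was 15.14. The median difference between the genotypes was 0 over all probe sets tested and -0.02 over the 6177 abundant ones. With 3 arrays per genotype, the precision of each value is limited by their number. Of the 39 marker genes listed for the cell types of the root and for green shoot, the annotation gave a probe set for 2. *EXPA7*, an expansin of root hairs, had 8.84, 8.999 and 8.89 in *ninja-1* and 8.70, 8.87 and 8.72 in WT. *RCA*, the Rubisco activase of green tissue, had 10.11, 10.18 and 10.51 in *ninja-1* and 10.15, 10.19 and 10.13 in WT. With a WT mean of 10.16, this marker of green tissue was abundant in the root samples, and the reason was not tested. The arrays of the genotypes overlapped for both markers, and neither passed the test described below (limma, adjusted p = 0.486 for *EXPA7* and 0.816 for *RCA*). Markers of endodermis, xylem, phloem, meristem and root cap were not analysed here.

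The differences of the 65 members ran from 0.59 to just under 1.00 with a median of 0.73, or 1.66-fold. They were unevenly spread over this range: 29 lay under 0.7, 17 from 0.7 to 0.8, 11 from 0.8 to 0.9 and 8 at 0.9 or more. Their means lay between 8.62 and 13.91 in *ninja-1* (median 9.96) and between 8.02 and 13.27 in WT (median 9.16). By WT mean, 26 members lay from 8 to 9, 23 from 9 to 10, 7 from 10 to 11, 7 from 11 to 12 and 2 above 12. The corresponding numbers of abundant probe sets were 2453, 1665, 1018, 587 and 454, so members made up between 0.441% of the brightest class and 1.38% of the class from 9 to 10.

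**Figure D1:**
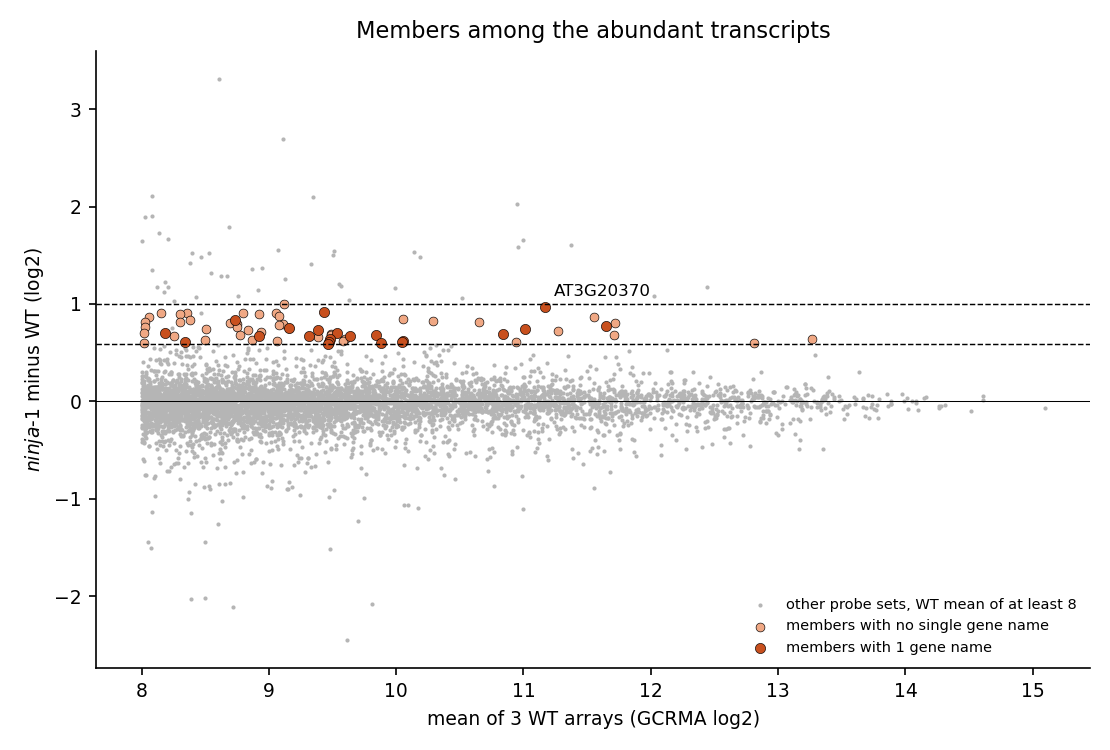
Each point is 1 of the 6177 probe sets with a WT mean of at least 8, placed by the mean of the 3 WT arrays (horizontal axis, log2) and by the difference *ninja-1* minus WT (vertical axis, log2). Members with a single gene name are dark orange, the other members light orange, and the dashed lines mark 1.5-fold and 2-fold. The members lie between the lines, above the 5962 grey probe sets that differ by less than 1.5-fold in either direction. Grey points between the lines are *NAI2*, *OPCL1*, *GTR2* and 254818_at, and those above the lines are the 47 probe sets at least 2-fold higher.

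Moderate differences of this kind were a small share of the abundant transcripts. Of the 6177, 96.5% differed by less than 1.5-fold in either direction. A further 47 were at least 2-fold higher in *ninja-1*, with every *ninja-1* array above every WT array. In the other direction, 79 were 1.5 to 2-fold lower and 17 at least 2-fold lower, again with the arrays of the genotypes apart. In the selected range of differences only 1 abundant probe set, 254818_at, had overlapping arrays. Over the whole array, every *ninja-1* array lay above every WT array for 7.75% of the probe sets. For the members this separation follows from their selection.

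The genotypes were also compared with limma, a linear model fitted to all 22746 probe sets with the Benjamini-Hochberg adjustment over all of them. A call means an adjusted p under 0.05. Of all probe sets, 0.805% were called higher in *ninja-1* and 0.374% lower, and among the 6177 abundant ones 1.23% were called higher. Of the 65 members, 22 were called higher. The members were selected on the same arrays and the same contrast, so nothing is read from that count. The 183 probe sets called higher over the whole array comprised 112 with at least a 2-fold difference and 71 below it, and 43 of those below it were abundant. The number of member calls depended on the probe sets fitted: when only the 14230 probe sets above 4 in at least 3 arrays were fitted, 3.53% of these were called higher and 60 of the 65 members with them. With each of the 6 arrays left out in turn, between 1 and 11 members were called (without WT replicate 1 and without *ninja-1* replicate 3). Over the whole array these fits called 52 and 155 probe sets higher, against 183 with all arrays.

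The members varied more between replicates than abundant probe sets in general. The median SD of the members was 0.13 over the *ninja-1* arrays and 0.12 over the WT arrays (n = 3 each), against 0.10 and 0.08 over all abundant probe sets. The same arrays selected the members, so nothing is read from this larger spread. The lowest *ninja-1* array exceeded the highest WT array by 0.46 in the median member, and by at least 0.3 in 55 of the 65. The narrowest gaps were those of 253125_at (0.06) and 247696_at (0.08), neither of which has a gene name here. For 253125_at the arrays read 10.03, 9.98 and 9.55 in *ninja-1* and 8.85, 8.89 and 9.49 in WT, so WT replicate 3 came close to *ninja-1* replicate 3. The widest gap, 0.84, was that of AT3G20370.

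The *ninja-1* arrays did not contribute equally. Set against the mean of WT, the median member stood 0.76 higher in *ninja-1* replicates 1 and 2 and 0.63 higher in replicate 3, with 0.01, 0.01 and -0.01 in WT replicates 1 to 3. *ninja-1* replicate 3 was the lowest of its genotype for 41 of the 65 members, and replicates 1 and 2 for 12 each. Over all abundant probe sets, the medians were 0.00, -0.02 and -0.03 in *ninja-1* replicates 1 to 3. With *ninja-1* replicate 3 left out, the median difference of the 65 was 0.76, and with *ninja-1* replicate 1 left out it was 0.70. The part of this array in the results was not tested.

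**Figure D2:**
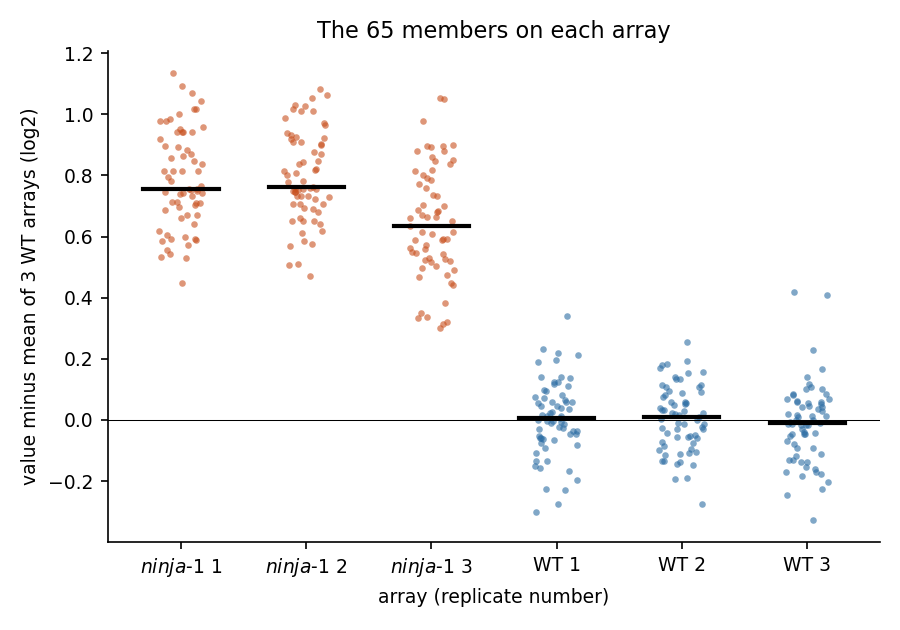
Each point is 1 of the 65 members on 1 array, as its value minus its own mean over the 3 WT arrays (vertical axis, log2), with the 3 *ninja-1* arrays on the left and the 3 WT arrays on the right. Black lines are medians, which lie at 0.76, 0.76 and 0.63 in *ninja-1* and near 0 in WT.

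Of the 65 members, 21 pair with a single gene, 2 with several genes and 42 with none in the annotation used. The single genes were a smaller share of the members (32.3%) than of all abundant probe sets (49.6%), so the genes described here cover the minority of the members that can be named. They were spread over all 5 chromosomes, with 6 on chromosome 1, 3 on 2, 5 on 3, 4 on 4 and 3 on 5. Of the 21, 8 carry a gene symbol and 13 only a locus code, and for the 13 no function is given because the tables used hold none. In 7 members the probe set is of a type that can bind several transcripts.

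**Figure D3:**
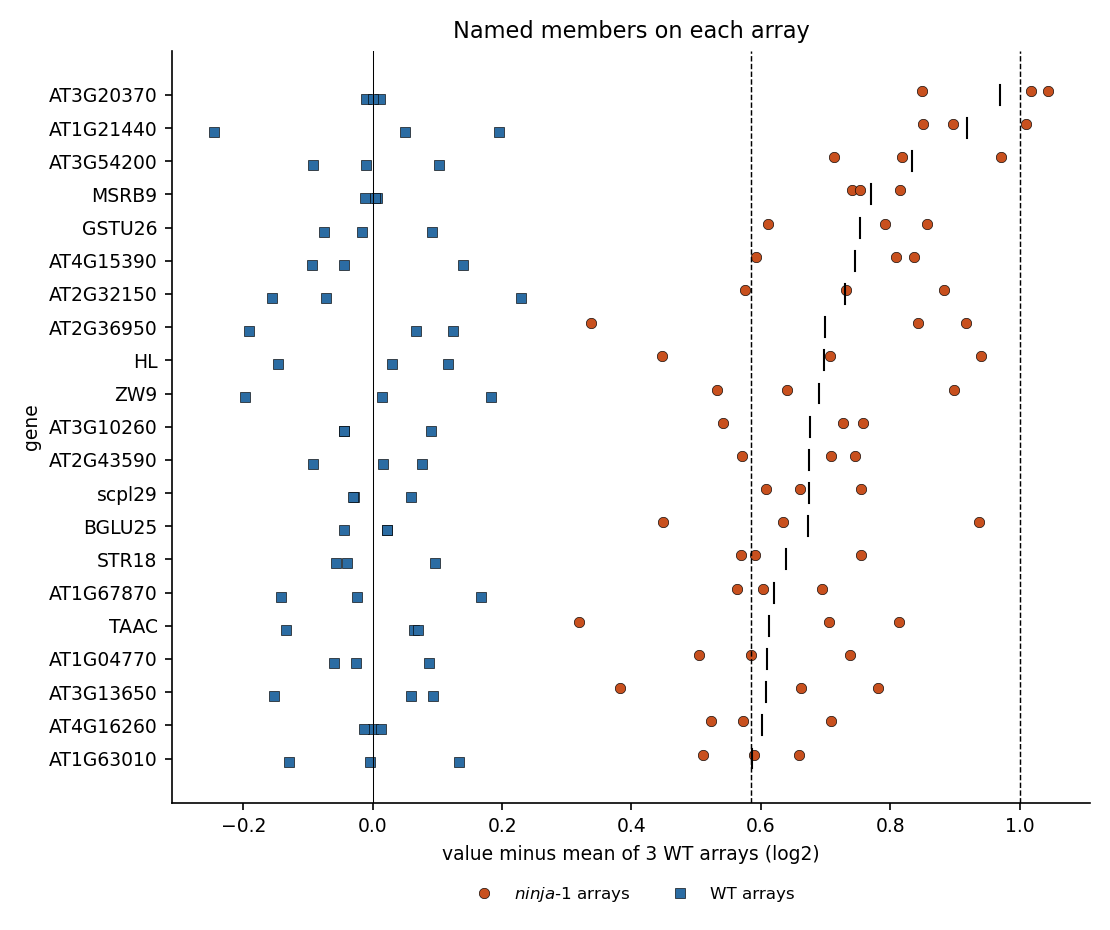
The 21 members with a single gene name are shown on each array, as the value minus the mean of the 3 WT arrays (horizontal axis, log2). Orange circles are *ninja-1* arrays, blue squares WT arrays, black ticks the mean *ninja-1* minus WT difference, and dashed lines 1.5-fold and 2-fold. AT3G20370 is at the top with 0.97 and AT1G63010 at the bottom with 0.59, and in every row the circles lie to the right of the squares.

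Among the members with a symbol, some encode enzymes that act on sulfur compounds or in detoxification, a grouping made after the members were known. *MSRB9* encodes a methionine sulfoxide reductase, an enzyme that repairs oxidised methionine in proteins. It read 12.39, 12.41 and 12.47 in *ninja-1* and 11.66, 11.66 and 11.64 in WT, a difference of 0.77 (standard error 0.02) or 1.71-fold. Its replicates were so close that the 0.73 between the lowest *ninja-1* array and the highest WT array was nearly the whole difference.

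*GSTU26* encodes a glutathione S-transferase of the tau class, a plant group that couples glutathione to foreign and reactive compounds. Its values were 10.02, 9.77 and 9.95 in *ninja-1* and 9.08, 9.25 and 9.14 in WT, 1.69-fold higher in *ninja-1*. *HL* (HAL2-like) encodes a phosphatase of the adenosine bisphosphate that is left over when sulfate groups are transferred. It had 9.13, 8.89 and 8.63 in *ninja-1* and 8.30, 8.04 and 8.21 in WT, or 1.62-fold higher, with *ninja-1* replicate 3 the closest to WT. *STR18*, for a sulfurtransferase of the rhodanese type, had 10.24, 10.05 and 10.07 in *ninja-1* and 9.58, 9.43 and 9.44 in WT, or 1.56-fold higher. *STR18* is described outside the rule for named genes, after its values were seen. In both *GSTU26* and *STR18* the genotypes were at least 0.47 apart.

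Enzymes of other kinds made up the next group. *scpl29* encodes a serine carboxypeptidase-like protein, a family of secreted or vacuolar proteases and acyltransferases. It had 10.29, 10.39 and 10.24 in *ninja-1* and 9.61, 9.69 and 9.60 in WT, a 1.60-fold difference with an SD of 0.07 in *ninja-1* and 0.05 in WT. *BGLU25* belongs to the β-glucosidases, which release sugars from stored glucosides. Its values were 9.37, 9.86 and 9.55 in *ninja-1* and 8.94, 8.94 and 8.88 in WT, or 1.59-fold higher, and it was likewise named after its values were seen. The spread of *BGLU25* was wider over the *ninja-1* arrays (SD 0.25) than over the WT arrays (SD 0.04).

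*TAAC*, a carrier that exchanges ATP and ADP across the thylakoid membrane of plastids, had 9.16, 9.05 and 8.66 in *ninja-1* and 8.41, 8.21 and 8.41 in WT, a 1.53-fold difference. *ZW9*, for a protein with a TRAF-like domain, had 11.37, 11.48 and 11.74 in *ninja-1* and 10.64, 11.02 and 10.85 in WT, a 1.61-fold difference. *ninja-1* replicate 3 was the lowest of its genotype for *TAAC* and the highest for *ZW9*. Neither was among the 22 members called.

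AT3G20370 differed most among the named members. Its values were 12.21, 12.19 and 12.02 in *ninja-1* and 11.16, 11.18 and 11.17 in WT, a difference of 0.97 (standard error 0.06) or 1.96-fold. The *ninja-1* arrays had an SD of 0.11, with replicate 3 the lowest, and the WT arrays one of 0.01. AT1G21440 came next with 1.89-fold, from 10.33, 10.44 and 10.28 in *ninja-1* and 9.63, 9.48 and 9.19 in WT, where WT replicate 3 was low. AT3G54200 had 9.45, 9.71 and 9.55 in *ninja-1* and 8.64, 8.73 and 8.84 in WT, or 1.78-fold higher. The values of all 3 genes were well apart between the genotypes, by at least 0.61.

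For AT4G15390 the arrays read 11.85, 11.82 and 11.60 in *ninja-1* and 11.15, 10.92 and 10.97 in WT (1.68-fold). For AT2G32150 they read 10.27, 9.96 and 10.12 in *ninja-1* and 9.23, 9.31 and 9.61 in WT (1.66-fold). AT2G36950 showed the narrowest separation of the named members: its *ninja-1* arrays read 10.45, 10.38 and 9.87 against 9.66, 9.35 and 9.60 in WT (1.62-fold), so that *ninja-1* replicate 3 was only 0.21 above the highest WT array. AT3G10260 had 10.39, 10.57 and 10.60 in *ninja-1* and 9.80, 9.94 and 9.80 in WT (1.60-fold). AT2G43590 had 10.03, 10.06 and 9.89 in *ninja-1* and 9.39, 9.33 and 9.23 in WT (1.60-fold). The gap between the lowest *ninja-1* array and the highest WT array was 0.35 for AT2G32150 and at least 0.45 for AT4G15390, AT3G10260 and AT2G43590.

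The 5 remaining locus codes lay near the lower limit, at no more than 1.54-fold. AT4G16260 had the smallest standard error of them (0.05), with 10.45, 10.59 and 10.40 in *ninja-1* and 9.88, 9.87 and 9.89 in WT (1.52-fold). AT3G13650 had the largest (0.13), with 10.82, 10.70 and 10.42 in *ninja-1* and 10.10, 10.14 and 9.89 in WT (1.52-fold). AT1G67870 had means of 10.67 ± 0.07 in *ninja-1* and 10.05 ± 0.16 in WT (SD, n = 3 each). AT1G04770 had 10.08 ± 0.12 in *ninja-1* and 9.47 ± 0.08 in WT, and AT1G63010 had 10.05 ± 0.07 in *ninja-1* and 9.46 ± 0.13 in WT (SD, n = 3 each). AT1G04770 was described after its values were seen.

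The 8 named members called higher were AT3G20370, AT3G54200, *MSRB9*, *GSTU26*, AT2G43590, *scpl29*, *STR18* and AT4G16260. These calls use the contrast that selected the members, so they describe the values and test nothing. Of all members, only *MSRB9* stayed called whichever array was left out. *STR18*, *GSTU26* and AT3G54200 passed only narrowly. Sizes and calls were not in the same order: AT1G21440, with 1.89-fold, was not called, while AT4G16260, with 1.52-fold, was. The standard error of the difference was 0.13 for AT1G21440 and 0.05 for AT4G16260.

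Members without a single gene name included the largest difference and the brightest WT signals. 258941_at had 10.21, 10.04 and 10.10 in *ninja-1* and 9.05, 9.25 and 9.05 in WT, a difference just under 1.00. 259382_s_at had the highest WT mean of all members, with 13.86, 13.99 and 13.88 in *ninja-1* and 13.04, 13.45 and 13.31 in WT (1.56-fold). 260130_s_at, which pairs with several genes, had 13.43, 13.32 and 13.49 in *ninja-1* and 12.66, 12.92 and 12.85 in WT (1.52-fold). 258791_at had 12.50, 12.43 and 12.34 in *ninja-1* and 11.55, 11.53 and 11.59 in WT, or 1.82-fold higher. In all of these every *ninja-1* array lay above the highest WT array, which follows from the selection. The gap was 0.79 in 258941_at, 0.75 in 258791_at, 0.41 in 259382_s_at and 0.40 in 260130_s_at.

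The limits of the selection cut through a continuous spread of values. Just inside the limit of 1.5-fold were, by their log2 differences, AT1G63010 (0.587), 261927_at (0.599) and AT4G16260 (0.601), and just outside it AT2G47550 (0.581), 251124_s_at (0.576) and 259878_at (0.570), all separated by array. Just inside the limit of 2-fold were 258941_at (0.999), AT3G20370 (0.970) and AT1G21440 (0.919), and just outside it 256321_at (1.02), AT2G31790 (1.03) and 263137_at (1.04). At the limit on WT mean, 262360_at (8.02), 261927_at (8.02) and 266095_at (8.02) were kept, and AT2G22930 (7.997), 263276_at (7.94) and 256178_s_at (7.92) were not. AT2G22930 differed by 0.76, as much as many members.

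Other genes with the same family name as a member were looked up after the members were known, and their differences varied. Of the other methionine sulfoxide reductases of type B, 3 were measured. *MSRB6* rose, with 10.28, 10.24 and 10.18 in *ninja-1* and 8.89, 8.86 and 8.87 in WT, a difference of 1.36 (standard error 0.03, limma adjusted p = 0.00159) or 2.57-fold. *MSRB5* had 11.85, 12.06 and 11.52 in *ninja-1* and 11.75, 11.47 and 11.27 in WT, which overlap (limma adjusted p = 0.642). *MSRB3* differed by -0.01. *MSRA5*, of the other type of methionine sulfoxide reductase, differed by -0.04. Closely related genes such as these could bind each other's probes, which was not tested.

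Of the 10 other tau-class glutathione S-transferases that were measured, none was called, and at an unadjusted p under 0.05 limma gave 2 higher and 2 lower. Of all probe sets, 0.805% were called higher and 0.374% lower. By the unadjusted p, 5.73% of all probe sets were higher and 7.23% lower. *GSTU20* differed most, with 9.65, 9.30 and 8.50 in *ninja-1* and 7.83, 7.43 and 7.201 in WT, a difference of 1.67 (standard error 0.37) that did not pass (limma adjusted p = 0.169). *GSTU28* lay the other way, with 7.97, 7.92 and 7.76 in *ninja-1* and 8.56, 8.40 and 8.28 in WT (difference -0.53, limma adjusted p = 0.125). *GSTU25*, the gene next to *GSTU26*, had 11.14, 11.36 and 11.55 in *ninja-1* and 11.19, 11.50 and 11.45 in WT, and so differed by -0.03.

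Among 19 other genes with a BGLU symbol, *BGLU16* alone was called (the β-glucosidase gene *PYK10*, which has another symbol, was counted with the ER body genes). It read 8.81, 8.70 and 8.88 in *ninja-1* and 8.31, 8.26 and 8.24 in WT, a difference of 0.53 (limma adjusted p = 0.0434). *BGLU46* differed by more, 0.76, but its WT arrays spread from 7.47 to 8.02 and it did not pass (limma adjusted p = 0.147). Among 28 other serine carboxypeptidase-like genes, *scpl48* alone was called, and it fell: 9.83, 9.72 and 9.80 in *ninja-1* against 10.20, 10.15 and 10.22 in WT, a difference of -0.40 (limma adjusted p = 0.0285). The median difference of the others was 0 in both families, where many genes lay at the floor, and 0 over all probe sets tested. With 0.805% of all probe sets called higher and 0.374% lower, nothing is read from the number of calls in these families.

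**Figure D4:**
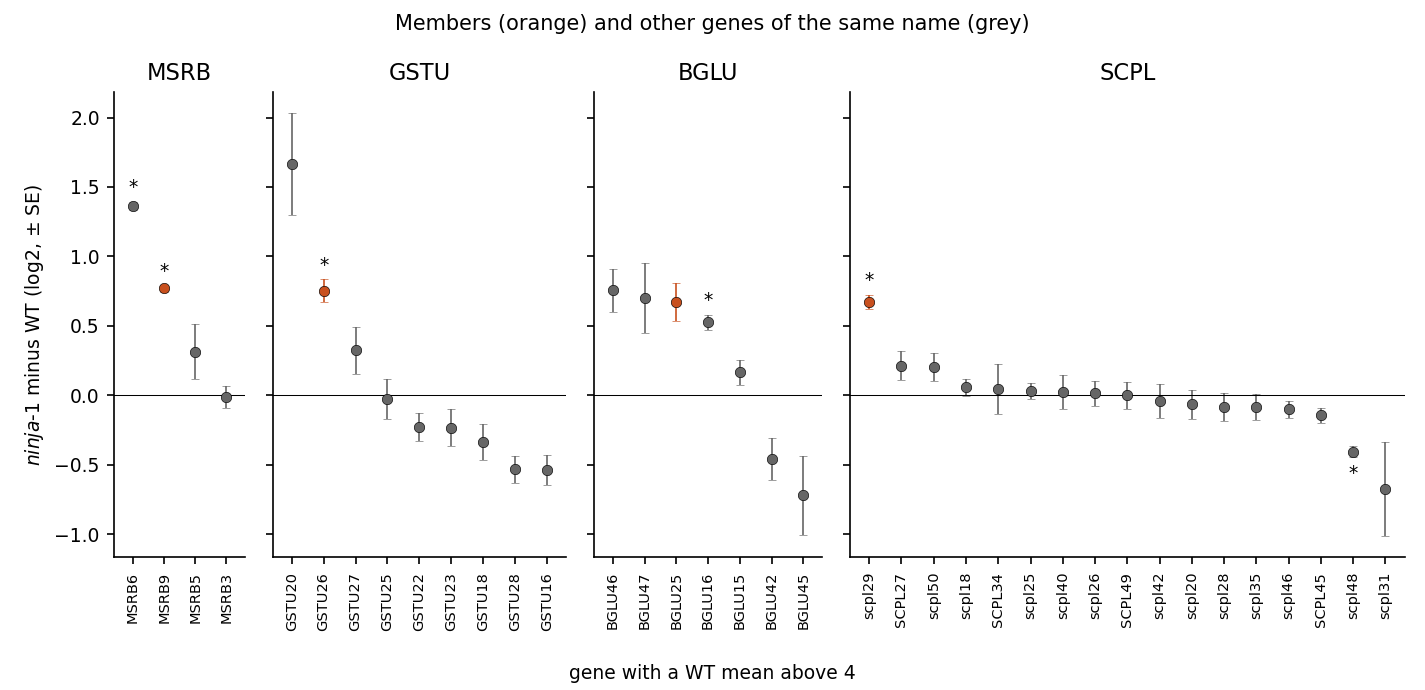
Differences *ninja-1* minus WT (vertical axis, log2, with the standard error from limma) are shown for the genes of 4 families with a WT mean above 4, ordered by size within each family. Members are orange, other genes of the same name grey, and asterisks mark an adjusted p under 0.05. Beside *MSRB9*, *GSTU26* and *scpl29*, which are members, the asterisks stand at *MSRB6*, *BGLU16* and *scpl48*, the last of them below 0.

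No measured gene next to a named member was as much higher in *ninja-1* as the members were. The 2 protein-coding genes on each side of the 21 named members, in the gene order of the RefSeq annotation (TAIR10.1), fill 84 positions, and 40 of these were measured, beside 17 of the members. None of the 40 was called in either direction by limma, where 0.805% of all probe sets were called higher and 0.374% lower. By the unadjusted p at 0.05, 2 were higher and 3 lower, where 5.73% of all probe sets were higher and 7.23% lower. These counts lie near the shares over the whole array. None of the 40 was itself a member. Of the 40, 17 lay at the floor in all arrays or nearly so, and of the 23 with a WT mean above 4, 22 differed by less than 1.5-fold. The exception was *CHI*, a chitinase gene that lies 2 genes from AT2G43590. It had 7.73, 7.57 and 7.23 in *ninja-1* and 8.31, 8.08 and 8.52 in WT, a difference of -0.79 that did not pass (limma adjusted p = 0.186), while AT2G43590 lay 0.67 the other way. The genes beside AT2G43590 on the other side, AT2G43600 and AT2G43610, differed by 0.09 and 0.02.

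**Figure D5:**
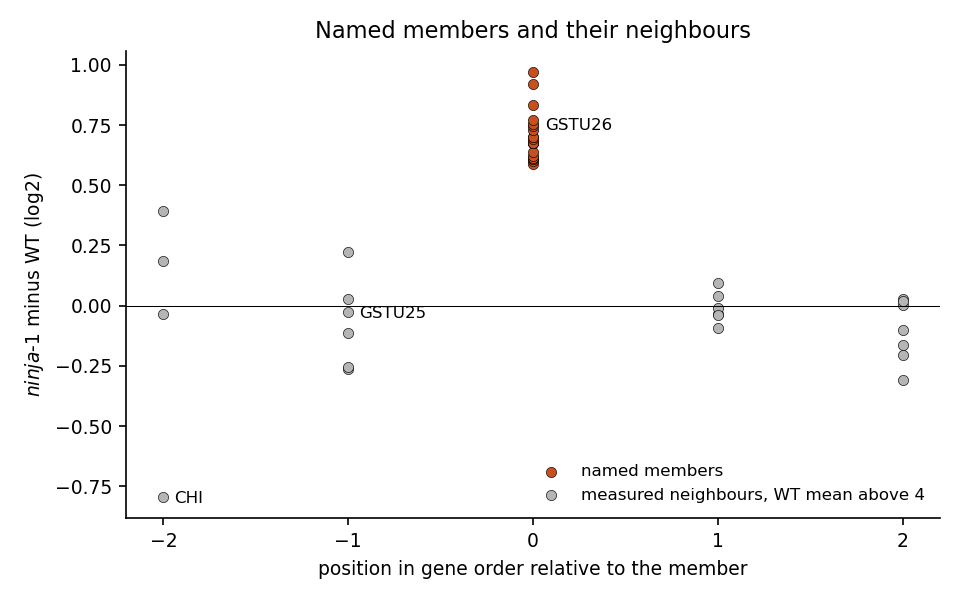
The 21 named members (orange, position 0) and their measured neighbours with a WT mean above 4 (grey) are placed by gene order (horizontal axis, in genes from the member) and by the difference *ninja-1* minus WT (vertical axis, log2). The neighbours lie between -0.79 (*CHI*) and 0.39, all below the members, and *GSTU25* lies at -0.03 beside *GSTU26*.

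The members were set beside 11 gene lists of pathways tied to JA or to root metabolism, 165 genes in all. Probe sets were named for 21 of these genes and none of the 21 is a member, although *NAI2* and *OPCL1*, which the selection leaves out by name, met its thresholds. Of the 21, limma called 5 higher and 0 lower, where 0.805% of all probe sets were called higher and 0.374% lower. Among the abundant probe sets, 1.23% were called higher. By the unadjusted p at 0.05, 12 were higher and 1 lower, where 5.73% of all probe sets were higher and 7.23% lower. The median difference of the 21 was 0.27, against 0 over all probe sets. The lists were chosen with earlier results of these data known, and *NAI2* is among the 5 called, so nothing is read from these counts. The ER body list gave 4 of the 5 calls among 6 measured genes. ER bodies are compartments of the endoplasmic reticulum in Brassicaceae that store β-glucosidases.

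*PYK10*, the main β-glucosidase of root ER bodies, had 13.94, 13.92 and 13.95 in *ninja-1* and 13.63, 13.66 and 13.61 in WT, so it rose by only 0.30, or 1.23-fold (limma adjusted p = 0.00838), below the range of the members. *NAI2*, which is needed to form ER bodies, had 12.43, 12.30 and 12.44 in *ninja-1* and 11.67, 11.71 and 11.81 in WT, a difference of 0.66 that was also among the calls. The jacalin-related lectin genes *JAL33* and *JAL22*, whose products bind PYK10 in complexes, rose by 1.08 (limma adjusted p = 0.00849) and 2.69 (limma adjusted p = 0.00361). *JAL22* had 11.86, 11.77 and 11.78 in *ninja-1* and 9.27, 9.07 and 8.99 in WT. The genes of this list therefore lay below, within and above the range from 1.5-fold to 2-fold.

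In the list of sulfate assimilation and glutathione synthesis, 3 genes were measured. *APS3*, for an ATP sulfurylase, the first enzyme of sulfate assimilation, had 7.39, 7.34 and 7.45 in *ninja-1* and 6.80, 6.94 and 6.79 in WT and rose by 0.55 (limma adjusted p = 0.0394). *APS4*, for the same kind of enzyme, lay the other way, with 11.01, 11.27 and 10.91 in *ninja-1* and 11.55, 11.47 and 11.59 in WT, a difference of -0.48 that did not pass (limma adjusted p = 0.176). The sulfite reductase gene *SIR* differed by 0.27 (limma adjusted p = 0.221). The ascorbate and glutathione list had 5 measured genes and no call from limma, with 1 higher and 0 lower by the unadjusted p at 0.05. JA synthesis, JA signalling and the synthesis of tryptophan and indole glucosinolates had 2 measured genes each and no call from limma, with 3 higher and 0 lower of the 6 by the unadjusted p at 0.05. The phenylpropanoid list had 1, *HCT*, which differed by -0.02, and genes of the 4 other lists were not analysed here.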

How the data were processed

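Total RNA of 5-do roots was hybridised to 6 ATH1 arrays, 3 per genotype, in the study. The deposited values are log2 signals per probe set that the authors made with GCRMA (background correction from probe sequence, quantile normalisation, summary over probes; version not given in the sources used here), and were used as deposited. All value columns belong to a sample of the series. After removal of 64 controls, 22746 probe sets were fitted in limma 3.58.1 (R 4.3.3) by lmFit and eBayes, with the default prior, genotype as the only term and no filter on dim probe sets. Tests are two-sided and p-values were adjusted by Benjamini and Hochberg's method over the 22746. The fit was tested on simulated data. Probe sets were named from the platform annotation (1 gene for 13513, several for 503, none for 8730) and the RefSeq gene table of TAIR10.1, which did not hold 77 of the 13513, and no name was given to a probe set with several genes. No coordinates or sequences are given, because the values name no genome build and no sequence table was at hand, and the planned search of promoters for a G-box was not run.

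The members and all gene lists were chosen with earlier results of these data known. The named genes were the 12 named members with the largest difference, the 10 with the highest WT mean, members in a gene list or keyword group, those nearest each limit, and list genes past the adjusted p, up to 4 per list. List genes near to but not past it, family members and neighbours were added after their values were seen. Alternatives were another prior, no moderation, array weights, a filter on dim probe sets, median centring, quantile normalisation, linear means, other limits on WT mean, a replicate block, no probe sets that may bind several transcripts, and each array left out in turn.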

Additional observations from a re-analysis of the deposited data

How the results depend on the processing

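The selection gave 65 members, and 69 after median centring, 64 after quantile normalisation, 65 with linear means and 58 without probe sets that may bind several transcripts, of which 62, 63, 64 and 58 were among the 65. A minimum WT mean of 7 gave 105 and one of 9 gave 39. Without 1 array, 56 to 72 were selected, and 36 of the 65 were selected whichever array was left out. Of the 65, 22 passed the adjusted p, against 60 with the filter on dim probe sets and 49 after median centring, both sets holding all 22, and 9 without moderation. Over the whole array the calls were 503 higher and 497 lower with the filter, 507 and 306 after median centring and 111 and 30 without moderation, against 183 and 85. Without 1 array, 1 to 11 of the 65 passed, and 46 to 155 probe sets were called higher over the whole array. Of the 21 measured pathway genes, 5 passed, against 10 with the filter, 9 after median centring and 3 without moderation, and 1 to 3 without 1 array. The cause of these moves was not tested.

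Both genotypes carry replicate numbers 1 to 3, but no pairing is described, so the numbers were not taken as pairs. The deviations of same-numbered arrays correlated at 0.13, 0.04 and 0.20, and those of differently numbered arrays at -0.32 to 0.26. These values do not settle whether the arrays were paired. With a replicate block, limma called 0 members and 0 pathway genes, and 0 probe sets higher over the whole array. The lowest adjusted p of any probe set in that limma fit was 0.0601. The differences of the 21 named members, recomputed under 13 alternatives (273 values), stayed between 0.51 and 1.03, and 272 moved by less than the replicate SD. The exception was *MSRB9* after median centring (0.80 against 0.77). The other prior, the filter on dim probe sets, the replicate block and no moderation cannot change a difference. Their values were fixed in advance and say nothing about stability. Leaving out 1 of 3 arrays cannot move a difference by as much as the replicate SD, so that comparison was fixed in advance as well. Only median centring, quantile normalisation and array weights could have moved a difference past the SD. The planned G-box shares, with their shorter window, were not run.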

Other observations

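*ninja-1* replicate 3 was the nearest to WT not only for 41 of the 65 members (63.1%). Of the 47 abundant probe sets at least 2-fold higher in *ninja-1*, it was the nearest to WT for 20 (42.6%). Of the 79 that were 1.5 to 2-fold lower it was the nearest for 44 (55.7%), and of the 17 at least 2-fold lower for 11 (64.7%). Of the 5962 abundant probe sets that differed by less than 1.5-fold, it was the lowest *ninja-1* array for 2361 (39.6%). The median difference from WT of the 79 moderately lower probe sets was -0.73, -0.80 and -0.63 in *ninja-1* replicates 1 to 3. These numbers describe the arrays, and no test was made of them.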
